A study of Saccharomyces cerevisiae with 3 samples.

Results

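The 46 genes described here are the transcription factor gene GCN4 of the budding yeast Saccharomyces cerevisiae and 45 genes of amino acid biosynthesis, many of them classical targets of Gcn4, listed by name. All 46 of 46 were found by locus tag among the 5777 genes of a one-colour NimbleGen expression array, each with 8 probes. RNA came from strain DS10, labelled WT, freshly transformed with 1 of 3 plasmids built on pRS415 with the GPD promoter. The plasmids carried Ssz1 with the substitution S295F, a stretch of Zuo1, residues 365 to 433, that holds the substitution S427G (the Zuo1 fragment), or TAP, which the labels call vector without saying more of its product. Every culture was in log phase in leucine drop-out medium, which selects for LEU2 of the plasmid in each group. Other markers of the strain and the further contents of the medium are not stated in the sources used here. RNA of 3 cultures was pooled for each array and there was 1 array per plasmid, so no spread between cultures was measured and no test between conditions was possible. Each comparison below is a comparison of 2 arrays of bulk RNA, in which a change in every cell and a change in a share of cells cannot be told apart.

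Gcn4 is a basic leucine zipper activator of the genes for making amino acids. In this yeast, uncharged tRNA activates the kinase Gcn2 on the ribosome, which phosphorylates the initiation factor eIF2, and general initiation then slows while the GCN4 message is translated more, because of short upstream reading frames. Ssz1 and Zuo1 sit on ribosomes as partners in a chaperone complex for newly made proteins, and are also known as activators of the drug-resistance regulator Pdr1. Because GCN4 is controlled mainly in translation, its transcript level is not a measure of Gcn4 activity, and the transcripts of its targets are the closer readout.

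Intensities are the authors' gene-level values on a linear scale. A level given below is the geometric mean over the 3 blocks of an array, and a log2 ratio is the difference of mean log2 intensities between 2 arrays, followed by its SD over the 3 blocks, which covers technical noise only. Coordinates are those of the array's own annotation and span the coding sequence. Levels are compared between arrays for the same gene and not between genes. Median intensities of all genes were 2701 with Ssz1 S295F, 2719.9 with the Zuo1 fragment and 2806 with vector, and blocks of an array correlated across genes at a Pearson r of 0.998 or more. No member lay below the 5th percentile of any array, and the dimmest member, SER3, was the only one below the 25th percentile of the vector array or of the Zuo1 fragment array. SSZ1 itself read 19318 with Ssz1 S295F, 12001 with the Zuo1 fragment and 10279 with vector, a log2 ratio to vector of 0.91 ± 0.07 for Ssz1 S295F and 0.22 ± 0.05 for the Zuo1 fragment. ZUO1 read 13744 with Ssz1 S295F, 12935 with the Zuo1 fragment and 13337 with vector, and where its probes lie in the gene was not used here. TDH3, whose promoter is the GPD promoter, had log2 ratios of -0.04 for Ssz1 S295F and 0.01 for the Zuo1 fragment.

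On both construct arrays, each of the 46 genes lay within 1.5-fold of its level on the vector array. With Ssz1 S295F, 0 of 46 members were higher and 0 lower than with vector past 2-fold, while 5.02% of all genes were higher and 2.77% lower by that rule of size, 7.79% in all. A smaller difference, 1.5-fold, was also reached by 0 members, against 23.3% of all genes in either direction. With the Zuo1 fragment, 0 of 46 members passed 2-fold in either direction, against 4.5% of all genes (3.64% higher and 0.866% lower), and 0 passed 1.5-fold, against 14.8%. The largest ratio in size was that of LYS4 in both comparisons, 0.44 for Ssz1 S295F and 0.36 for the Zuo1 fragment. No single block of an array put any member past 1.5-fold. Above vector lay 25 members with Ssz1 S295F, where 34.2% of all genes did, and 19 with the Zuo1 fragment, where 32.5% did.

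Spread among the members was small beside that of the whole array. The background differs from the members in level, as SER3 was the only member below the 25th percentile of any array. All genes thus include dim genes that the members hardly include, and the part of level in the spread was not tested. Their log2 ratios had an SD over genes of 0.18 for Ssz1 S295F and 0.14 for the Zuo1 fragment, against 0.61 and 0.48 for all genes in the same comparisons. Within 0.25 of 0 on the log2 scale lay 36 members for Ssz1 S295F and 43 for the Zuo1 fragment, where 42.7% and 52.1% of all genes did. Within 0.5 lay all 46 in both comparisons, against 70.6% and 80.2% of all genes. The median log2 ratio of the members was 0.0068 with Ssz1 S295F, against -0.15 for all genes, and -0.03 with the Zuo1 fragment, against -0.12 for all genes. Above the median of all genes lay 42 members for Ssz1 S295F and 39 for the Zuo1 fragment, where 50% of all genes do. The 3 blocks gave the same sign for 36 members in each of these comparisons, against 91.1% and 90.1% of all genes. The vector array enters both comparisons, so they are not independent of each other.

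The side of vector on which a member lay often turned on the scaling of the arrays. Under every scaling and block tried, 16 members kept 1 side in both comparisons. Of these, ARG4, CPA1, TRP2, TRP3, TRP5, HIS5, ILV1, ILV3, ILV6, LEU1, LYS4, LYS9, LYS21, HOM3 and SER3 were above vector and LYS20 was below it. This split is partly built in. Centring, which subtracts the median of all genes (-0.15 for Ssz1 S295F and -0.12 for the Zuo1 fragment), raised every ratio. A member less far below vector than that could not keep its side, while no member above vector could lose its side to centring. For the other 30 the sign changed under at least 1 alternative in at least 1 comparison. Some of these kept 1 sign in the other comparison, as ARO1 did with Ssz1 S295F (0.11 to 0.35 over the alternatives) and ILV2 (0.05 to 0.30).

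**Figure D1:**
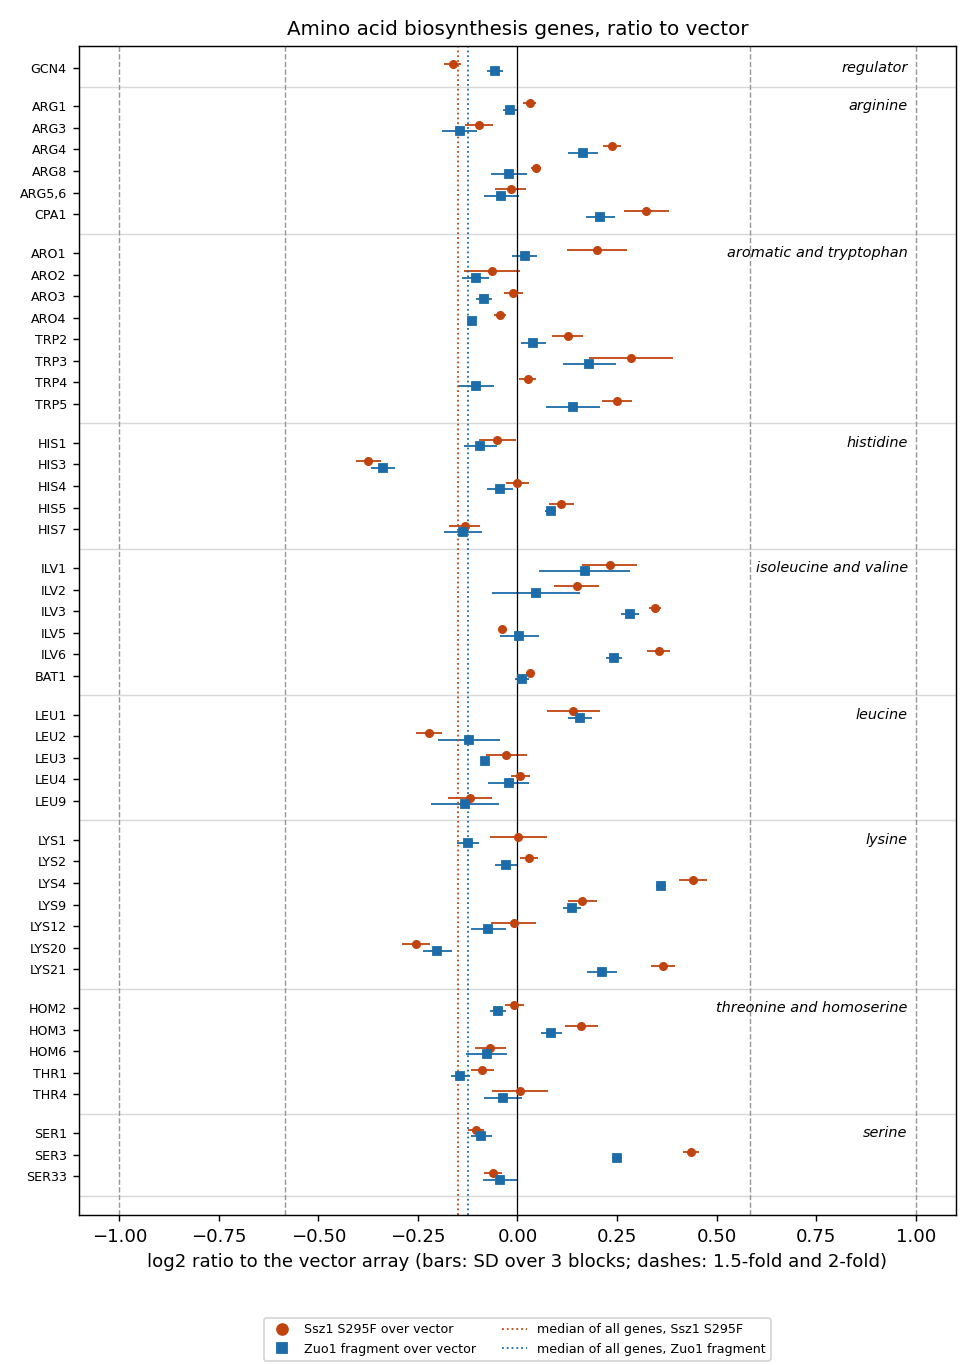
Log2 ratio to the vector array (horizontal axis) of each of the 46 genes, grouped by pathway, for Ssz1 S295F (circles) and the Zuo1 fragment (squares); bars are the SD over 3 blocks, dotted lines the medians of all genes (-0.15 and -0.12), dashed lines 1.5-fold and 2-fold. Every point lies inside the 1.5-fold lines, with LYS4 and SER3 farthest to the right and HIS3 farthest to the left.

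GCN4 (YEL009C, chromosome V, 138918 to 139763) read 12551 with Ssz1 S295F, 13505 with the Zuo1 fragment and 14047 with vector. Its log2 ratio to vector was -0.16 ± 0.02 for Ssz1 S295F and -0.06 ± 0.02 for the Zuo1 fragment, so the vector reading was the highest of the 3 and the difference from it was smaller for the Zuo1 fragment. GCN4 has a short reading frame of 846 bp, and after a smooth trend of ratio with coding length over all genes was subtracted its ratios were 0.17 for Ssz1 S295F and 0.21 for the Zuo1 fragment, on the other side of 0. LEU3, a zinc cluster regulator that responds to the leucine precursor alpha-isopropylmalate and is itself a Gcn4 target, read 4851 with Ssz1 S295F, 4676 with the Zuo1 fragment and 4946 with vector, ratios of -0.03 ± 0.05 for Ssz1 S295F and -0.08 ± 0.01 for the Zuo1 fragment.

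Among the arginine genes, CPA1 and ARG4 stood above vector on both construct arrays under every scaling tried. ARG3 lay below vector on both, a side it did not keep under every scaling, and the other members were near vector. CPA1 (YOR303W, chromosome XV, 882897 to 884132), the small subunit of carbamoyl phosphate synthetase, read 13026 with Ssz1 S295F, 12020 with the Zuo1 fragment and 10409 with vector, ratios of 0.32 ± 0.06 for Ssz1 S295F and 0.21 ± 0.04 for the Zuo1 fragment. CPA1 is also known for arginine control through a peptide encoded upstream of its reading frame. ARG4, argininosuccinate lyase, read 9836 with Ssz1 S295F, 9358 with the Zuo1 fragment and 8342 with vector, ratios of 0.24 ± 0.02 for Ssz1 S295F and 0.17 ± 0.04 for the Zuo1 fragment. ARG1, argininosuccinate synthetase, which acts just before ARG4 and is a widely used Gcn4 reporter, read 14275 with Ssz1 S295F, 13804 with the Zuo1 fragment and 13975 with vector, ratios of 0.03 ± 0.02 for Ssz1 S295F and -0.02 ± 0.02 for the Zuo1 fragment. All 3 readings of ARG1 thus lay within a few percent of each other. ARG3, ornithine carbamoyltransferase, had ratios of -0.10 ± 0.04 for Ssz1 S295F and -0.15 ± 0.04 for the Zuo1 fragment. ARG8, acetylornithine aminotransferase, had 0.05 ± 0.01 for Ssz1 S295F and -0.02 ± 0.04 for the Zuo1 fragment, and ARG5,6, which encodes the acetylglutamate kinase and the reductase that follows it, had -0.02 ± 0.04 for Ssz1 S295F and -0.04 ± 0.04 for the Zuo1 fragment. The median of the 6 arginine genes was 0.04 for Ssz1 S295F and -0.02 for the Zuo1 fragment.

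Genes of the shikimate and tryptophan pathway had a median ratio of 0.08 for Ssz1 S295F and -0.03 for the Zuo1 fragment, and all 8 lay above the median of all genes in both comparisons. TRP3, a bifunctional enzyme that holds the glutamine amidotransferase part of anthranilate synthase, read 6008 with Ssz1 S295F, 5585 with the Zuo1 fragment and 4928 with vector, ratios of 0.29 ± 0.11 for Ssz1 S295F and 0.18 ± 0.07 for the Zuo1 fragment. TRP5, tryptophan synthase, read 11570 with Ssz1 S295F, 10713 with the Zuo1 fragment and 9728 with vector, ratios of 0.25 ± 0.04 for Ssz1 S295F and 0.14 ± 0.07 for the Zuo1 fragment. TRP3 and TRP5 both had their lowest reading on the vector array. TRP2, the other part of anthranilate synthase, had ratios of 0.13 ± 0.04 for Ssz1 S295F and 0.04 ± 0.03 for the Zuo1 fragment. TRP4, anthranilate phosphoribosyltransferase, read 5566 with Ssz1 S295F, 5085 with the Zuo1 fragment and 5468 with vector, ratios of 0.03 ± 0.02 for Ssz1 S295F and -0.10 ± 0.05 for the Zuo1 fragment. In TRP4 the construct arrays lay on opposite sides of the vector array in every block, although the blocks of the Ssz1 S295F array, 5296 to 5920.4, overlapped those of the vector array, 5279 to 5726. ARO1, the pentafunctional enzyme of the shikimate pathway, had ratios of 0.20 ± 0.08 for Ssz1 S295F and 0.02 ± 0.03 for the Zuo1 fragment, so the Zuo1 fragment reading was within its block SD of vector. ARO2, chorismate synthase, had -0.06 ± 0.07 for Ssz1 S295F and -0.10 ± 0.03 for the Zuo1 fragment. ARO3 and ARO4 are the isoenzymes that open the pathway and differ in whether phenylalanine or tyrosine inhibits them. ARO3 had ratios of -0.01 ± 0.02 for Ssz1 S295F and -0.08 ± 0.02 for the Zuo1 fragment, and ARO4 of -0.04 ± 0.02 for Ssz1 S295F and -0.11 ± 0.00 for the Zuo1 fragment.

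Histidine genes included the lowest ratio of the whole list. HIS3 (YOR202W, chromosome XV, 721947 to 722609), imidazoleglycerol-phosphate dehydratase, read 3015 with Ssz1 S295F, 3092 with the Zuo1 fragment and 3909 with vector, ratios of -0.37 ± 0.03 for Ssz1 S295F and -0.34 ± 0.03 for the Zuo1 fragment. The vector reading was the highest in every block, but HIS3 is also the shortest member at 663 bp, and with the trend of coding length subtracted its ratios were 0.03 for Ssz1 S295F and -0.03 for the Zuo1 fragment. HIS4, a multifunctional enzyme and a classical Gcn4 target, read 10283 with Ssz1 S295F, 9983 with the Zuo1 fragment and 10286 with vector, ratios of 0.00 ± 0.03 for Ssz1 S295F and -0.04 ± 0.03 for the Zuo1 fragment. HIS4 was thus at the same level on the Ssz1 S295F and vector arrays within the spread of the blocks. HIS1, ATP phosphoribosyltransferase at the head of the pathway, had ratios of -0.05 ± 0.05 for Ssz1 S295F and -0.09 ± 0.04 for the Zuo1 fragment. HIS5, histidinol-phosphate aminotransferase, had 0.11 ± 0.03 for Ssz1 S295F and 0.08 ± 0.01 for the Zuo1 fragment, and HIS7, imidazole glycerol phosphate synthase, had -0.13 ± 0.04 for Ssz1 S295F and -0.14 ± 0.05 for the Zuo1 fragment. The median of the 5 was -0.05 for Ssz1 S295F and -0.09 for the Zuo1 fragment.

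The isoleucine and valine genes had the highest median of the pathway groups, 0.19 for Ssz1 S295F and 0.11 for the Zuo1 fragment, with all 6 above the median of all genes in both comparisons. With the trend of coding length subtracted, their median for Ssz1 S295F was 0.17, below the 0.19 of the lysine genes. For the Zuo1 fragment it was 0.14, still the highest of the groups. ILV6 (YCL009C, chromosome III, 104619 to 105548), the regulatory subunit of acetolactate synthase, read 15180 with Ssz1 S295F, 14039 with the Zuo1 fragment and 11873 with vector, ratios of 0.35 ± 0.03 for Ssz1 S295F and 0.24 ± 0.02 for the Zuo1 fragment. Its catalytic partner ILV2 read 13445 with Ssz1 S295F, 12527 with the Zuo1 fragment and 12127 with vector, ratios of 0.15 ± 0.06 for Ssz1 S295F and 0.05 ± 0.11 for the Zuo1 fragment. The subunits of this enzyme therefore had unequal ratios, with the regulatory one farther from vector. ILV3 (YJR016C, chromosome X, 464444 to 466201), dihydroxyacid dehydratase, read 11626 with Ssz1 S295F, 11124 with the Zuo1 fragment and 9151 with vector, ratios of 0.35 ± 0.01 for Ssz1 S295F and 0.28 ± 0.02 for the Zuo1 fragment. ILV1, threonine deaminase, which commits threonine to isoleucine, had ratios of 0.23 ± 0.07 for Ssz1 S295F and 0.17 ± 0.11 for the Zuo1 fragment. ILV5, the acetohydroxyacid reductoisomerase that also packages mitochondrial DNA, had -0.04 ± 0.01 for Ssz1 S295F and 0.00 ± 0.05 for the Zuo1 fragment, and BAT1, the mitochondrial branched-chain aminotransferase, had 0.03 ± 0.00 for Ssz1 S295F and 0.01 ± 0.02 for the Zuo1 fragment. Both were at the vector level within 0.04 on the log2 scale.

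In the leucine pathway, LEU2 encodes isopropylmalate dehydrogenase and is the selectable marker of pRS415, so its reading holds transcripts of the plasmid and of any chromosomal copy together. LEU2 (YCL018W, chromosome III, 91324 to 92418) read 17711 with Ssz1 S295F, 18998 with the Zuo1 fragment and 20669 with vector, ratios of -0.22 ± 0.03 for Ssz1 S295F and -0.12 ± 0.08 for the Zuo1 fragment. Both construct arrays were below vector, by less than 1.2-fold, a side that the Zuo1 fragment array did not keep under every scaling. LEU1, isopropylmalate isomerase, which acts just before it, read 20194 with Ssz1 S295F, 20428 with the Zuo1 fragment and 18323 with vector, ratios of 0.14 ± 0.07 for Ssz1 S295F and 0.16 ± 0.03 for the Zuo1 fragment. LEU4 and LEU9 encode the alpha-isopropylmalate synthases, of which LEU4 is the main one. LEU4 had ratios of 0.01 ± 0.02 for Ssz1 S295F and -0.02 ± 0.05 for the Zuo1 fragment, and LEU9 of -0.12 ± 0.05 for Ssz1 S295F and -0.13 ± 0.09 for the Zuo1 fragment. The median of the 5 leucine genes was -0.03 for Ssz1 S295F and -0.08 for the Zuo1 fragment.

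Lysine genes had the widest range of the pathway groups, from -0.26 to 0.44 for Ssz1 S295F and from -0.20 to 0.36 for the Zuo1 fragment. LYS4 (YDR234W, chromosome IV, 931125 to 933206), homoaconitase, read 8139.8 with Ssz1 S295F, 7696 with the Zuo1 fragment and 5995 with vector, ratios of 0.44 ± 0.04 for Ssz1 S295F and 0.36 ± 0.01 for the Zuo1 fragment. Its blocks read from 7957 to 8271 with Ssz1 S295F, from 7649.8 to 7767 with the Zuo1 fragment and from 5945 to 6029 with vector, with no overlap. The step before it is homocitrate synthase, encoded by LYS20 and LYS21, whose products are inhibited by lysine. LYS21 (YDL131W, chromosome IV, 227393 to 228715) read 6630.1 with Ssz1 S295F, 5961 with the Zuo1 fragment and 5147 with vector, ratios of 0.37 ± 0.03 for Ssz1 S295F and 0.21 ± 0.04 for the Zuo1 fragment. LYS20 (YDL182W, chromosome IV, 133438 to 134724) read 5773 with Ssz1 S295F, 5995 with the Zuo1 fragment and 6890.5 with vector, ratios of -0.26 ± 0.04 for Ssz1 S295F and -0.20 ± 0.04 for the Zuo1 fragment. The pair lay on opposite sides of vector, with LYS21 above LYS20 by 0.62 in log2 ratio for Ssz1 S295F and by 0.41 for the Zuo1 fragment. Because these isoenzymes are closely related and the places of their probes were not used here, signal shared between them is not known, which also holds for the other isoenzyme pairs named.

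Later lysine steps were closer to vector. LYS12, homoisocitrate dehydrogenase, had ratios of -0.01 ± 0.06 for Ssz1 S295F and -0.07 ± 0.04 for the Zuo1 fragment. LYS2, the aminoadipate reductase, read 5702 with Ssz1 S295F, 5480.2 with the Zuo1 fragment and 5589 with vector, ratios of 0.03 ± 0.02 for Ssz1 S295F and -0.03 ± 0.03 for the Zuo1 fragment. LYS9, which forms saccharopine, had 0.16 ± 0.04 for Ssz1 S295F and 0.14 ± 0.02 for the Zuo1 fragment, and LYS1, which splits saccharopine to lysine, had 0.00 ± 0.07 for Ssz1 S295F and -0.12 ± 0.03 for the Zuo1 fragment. LYS9 was the member of these 4 that lay farthest from vector, and its 3 blocks had the same sign in both comparisons.

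Aspartate is turned into homoserine by HOM3, HOM2 and HOM6 and then into threonine by THR1 and THR4. These 5 genes stayed within 0.16 of vector on the log2 scale. HOM3, the aspartate kinase and the step that threonine inhibits, read 9088 with Ssz1 S295F, 8632 with the Zuo1 fragment and 8136 with vector, ratios of 0.16 ± 0.04 for Ssz1 S295F and 0.09 ± 0.03 for the Zuo1 fragment. HOM2, aspartate semialdehyde dehydrogenase, had -0.01 ± 0.02 for Ssz1 S295F and -0.05 ± 0.02 for the Zuo1 fragment, and HOM6, homoserine dehydrogenase, had -0.07 ± 0.04 for Ssz1 S295F and -0.08 ± 0.05 for the Zuo1 fragment. THR1, homoserine kinase, had ratios of -0.09 ± 0.03 for Ssz1 S295F and -0.14 ± 0.02 for the Zuo1 fragment, and THR4, threonine synthase, of 0.01 ± 0.07 for Ssz1 S295F and -0.04 ± 0.05 for the Zuo1 fragment. HOM3 was the highest of the 5 in both comparisons and THR1 the lowest.

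Serine is made from 3-phosphoglycerate by the isoenzymes SER3 and SER33, then SER1 and SER2. SER3 (YER081W, chromosome V, 322682 to 324091) read 1252 with Ssz1 S295F, 1101 with the Zuo1 fragment and 926 with vector, ratios of 0.44 ± 0.02 for Ssz1 S295F and 0.25 ± 0.01 for the Zuo1 fragment. It is known for repression by transcription of a noncoding RNA across its promoter when serine is present. SER33 read 3415 with Ssz1 S295F, 3460 with the Zuo1 fragment and 3565 with vector, ratios of -0.06 ± 0.02 for Ssz1 S295F and -0.04 ± 0.04 for the Zuo1 fragment. SER3 therefore lay above its isoenzyme by 0.50 in log2 ratio for Ssz1 S295F and by 0.29 for the Zuo1 fragment. SER1, phosphoserine aminotransferase, had -0.10 ± 0.02 for Ssz1 S295F and -0.09 ± 0.03 for the Zuo1 fragment.

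**Figure D2:**
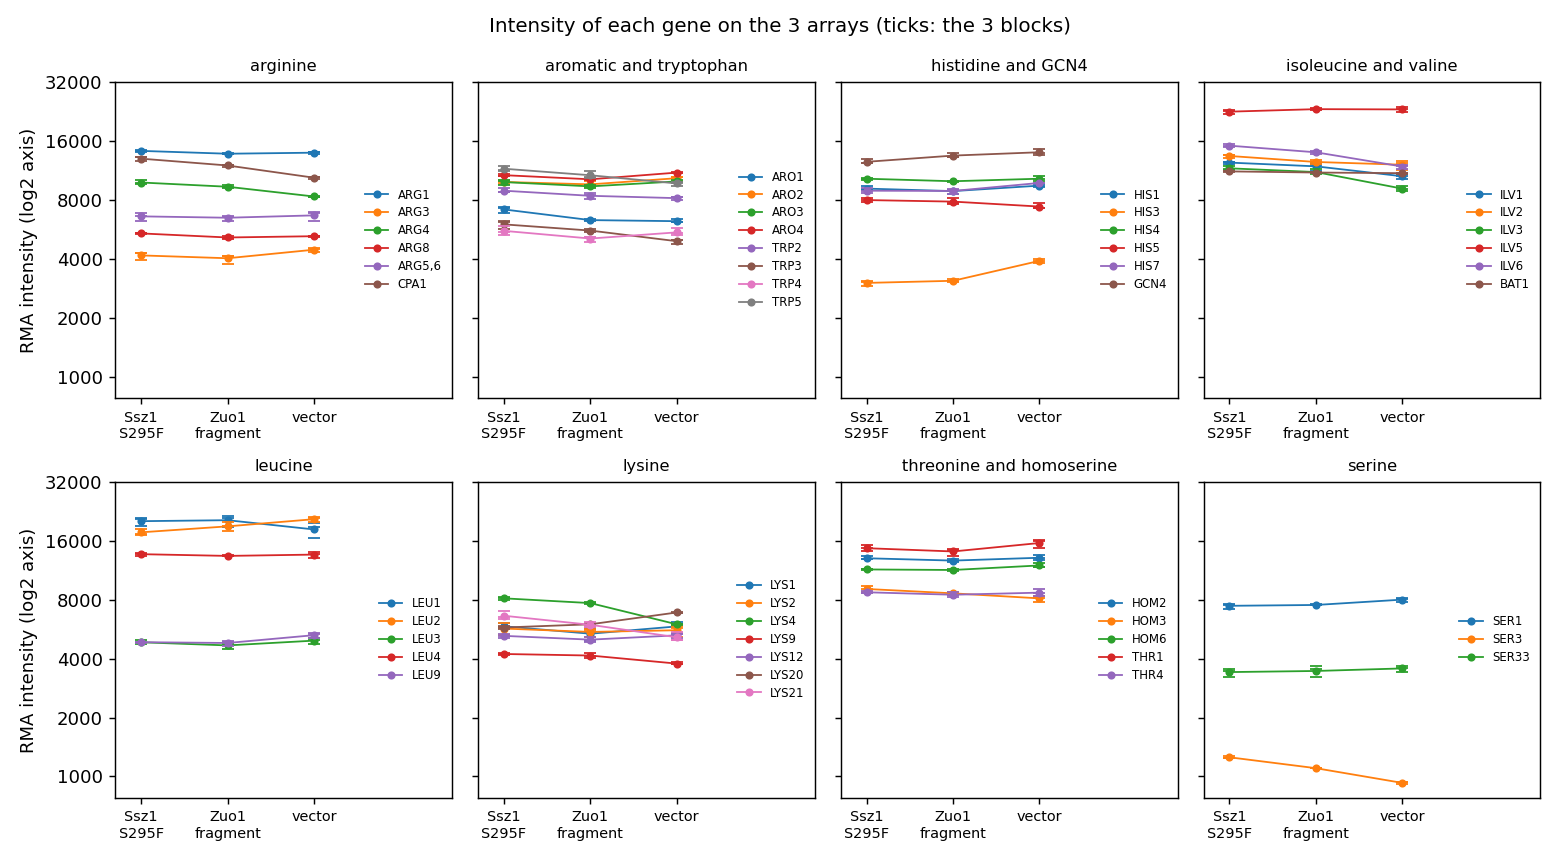
RMA intensity (vertical log2 axis) of each gene on the Ssz1 S295F, Zuo1 fragment and vector arrays, 1 panel per pathway with GCN4 in the histidine panel; circles are means over blocks and ticks the 3 blocks. Lines are nearly level for most genes, and LYS4, LYS21, SER3, ILV3, ILV6 and CPA1 are lower on the vector array while HIS3 and LYS20 are higher there.

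The construct arrays were closer still to each other. With the Zuo1 fragment, 0 of 46 members passed 2-fold against Ssz1 S295F, where 0.277% of all genes did, and 0 passed 1.5-fold, where 2.06% did. All 46 lay within 0.25, against 85.7% of all genes, and 33 had the same sign in all blocks, against 77% of all genes. The median log2 ratio of the Zuo1 fragment over Ssz1 S295F was -0.05, against 0.03 for all genes, and 38 of 46 members lay below 0, where 42% of all genes did. The difference was smaller than 1.2-fold in every member. SER3 had the lowest ratio of the Zuo1 fragment over Ssz1 S295F, -0.19 ± 0.02, followed by ARO1 (-0.18 ± 0.05) and LYS21 (-0.15 ± 0.02). At the other end were GCN4 (0.11 ± 0.00) and LEU2 (0.10 ± 0.05). Relative to vector, 18 members were above it on both construct arrays, 20 were below it on both, 7 were above it for Ssz1 S295F and below it for the Zuo1 fragment, and 1, ILV5, the reverse. The size of the ratio to vector was smaller for the Zuo1 fragment than for Ssz1 S295F in 27 members, or 58.7%, where it was in 75.3% of all genes.

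**Figure D3:**
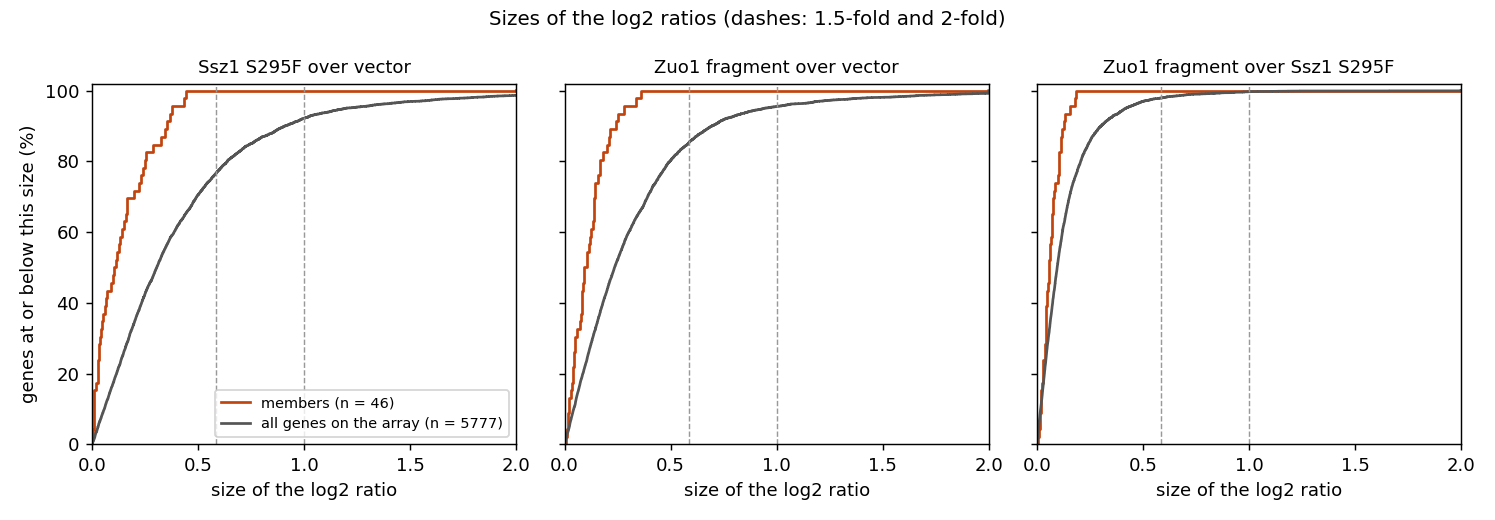
Percentage of genes (vertical axis) whose log2 ratio is at or below a given size (horizontal axis, up to 2) for the 46 members and for all 5777 genes, in the 3 comparisons; dashed lines mark 1.5-fold and 2-fold. The line of the members reaches 100% at 0.44 with Ssz1 S295F over vector, 0.36 with the Zuo1 fragment over vector and 0.19 between the constructs, to the left of the line of all genes.

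Ratios to vector went with coding length over the whole array, and the members shared in this. Across genes, which are not independent replicates, the Spearman correlation of ratio and coding length was 0.42 over the 46 members for Ssz1 S295F and 0.55 over all genes, and 0.43 and 0.52 for the Zuo1 fragment. Under 1000 bp lay 4 members, GCN4, HIS1, HIS3 and ILV6, of which all but ILV6 were below vector in both comparisons, as were 90.4% of all genes of that length for Ssz1 S295F and 91.2% for the Zuo1 fragment. At 1400 bp or more, 14 of 20 members were above vector with Ssz1 S295F, where 59.8% of all such genes were. With the trend subtracted, the median of the members was 0.14 for Ssz1 S295F and 0.07 for the Zuo1 fragment, against 0.02 and 0.01 for all genes. Above 0 then lay 35 members for Ssz1 S295F and 34 for the Zuo1 fragment, where 52.1% and 52.3% of all genes did. For the Zuo1 fragment over Ssz1 S295F, 9 members lay above 0 on that scale, where 49.3% of all genes did. ILV6 had the largest ratio on that scale, 0.65 for Ssz1 S295F and 0.48 for the Zuo1 fragment, and with Ssz1 S295F it was the one member past 1.5-fold. The part of coding length in the members' ratios was not tested.

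**Figure D4:**
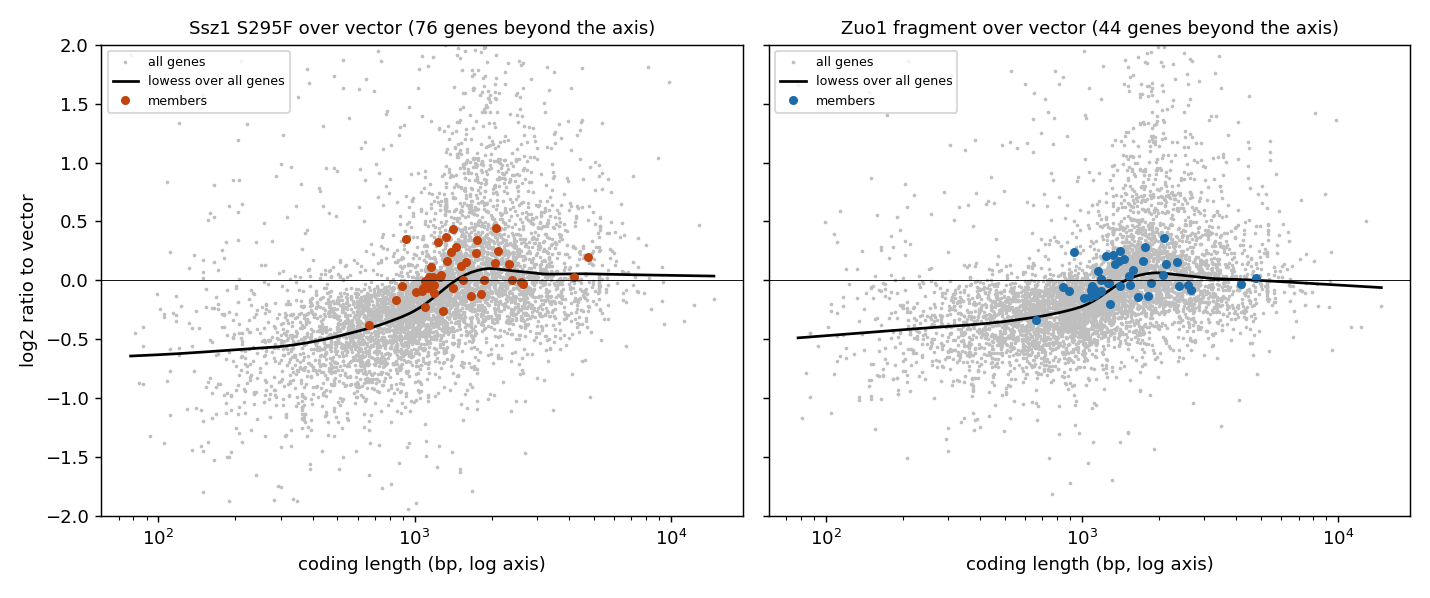
Log2 ratio to vector (vertical axis, limited to 2 in size) against coding length (horizontal log axis) for all genes (grey) and the 46 members (coloured), with the smooth trend over all genes (black line). Most members lie on the trend or above it, HIS3 (663 bp) close to it and ILV6 (930 bp) well above it.

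Other genes of amino acid synthesis and of Gcn4 control, 67 in 13 lists, gave a wider picture than the members. With Ssz1 S295F, 3 of 67 were higher and 1 lower past 2-fold, and with the Zuo1 fragment 3 were higher and 0 lower, to be read beside the 7.79% and 4.5% of all genes past 2-fold in these comparisons. Their medians were 0.00 for Ssz1 S295F and -0.03 for the Zuo1 fragment. Past 2-fold and higher in both comparisons were PHO2, GCD2 and UGA3. PHO2 (YDL106C, chromosome IV, 270222 to 271901), a homeodomain factor that works with Bas1 at histidine and purine genes, read 3286 with Ssz1 S295F, 2399 with the Zuo1 fragment and 954 with vector, ratios of 1.78 ± 0.04 for Ssz1 S295F and 1.33 ± 0.25 for the Zuo1 fragment. GCD2 (YGR083C, chromosome VII, 644864 to 646819), a subunit of the eIF2 exchange factor eIF2B and a negative regulator of GCN4 translation, read 6556 with Ssz1 S295F, 6492 with the Zuo1 fragment and 2256 with vector, ratios of 1.54 ± 0.04 for Ssz1 S295F and 1.52 ± 0.04 for the Zuo1 fragment. UGA3 (YDL170W, chromosome IV, 156319 to 157905), an activator of the genes for use of gamma-aminobutyrate, read 1739 with Ssz1 S295F, 1511 with the Zuo1 fragment and 733 with vector, ratios of 1.25 ± 0.29 for Ssz1 S295F and 1.04 ± 0.09 for the Zuo1 fragment. In each of these, all blocks of the construct arrays lay above all blocks of the vector array, and all 3 have between 1587 and 1956 bp. With the trend of coding length subtracted they stayed past 2-fold in both comparisons, PHO2 at 1.71 for Ssz1 S295F and 1.29 for the Zuo1 fragment, GCD2 at 1.44 for Ssz1 S295F and 1.46 for the Zuo1 fragment and UGA3 at 1.20 for Ssz1 S295F and 1.01 for the Zuo1 fragment.

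The other genes of Gcn4 control stayed within 1.5-fold of vector. Of the 8 genes for eIF2 and eIF2B, 7 stayed within 1.5-fold in both comparisons, so GCD2 stood apart from its partners. SUI3, a subunit of eIF2, had ratios of 0.16 for Ssz1 S295F and 0.24 for the Zuo1 fragment. GCD6 had 0.16 for Ssz1 S295F and 0.20 for the Zuo1 fragment and GCD7 -0.23 for Ssz1 S295F and -0.23 for the Zuo1 fragment, both subunits of eIF2B. Subtracting the trend of coding length put GCD7 at -0.05 for Ssz1 S295F and -0.07 for the Zuo1 fragment. SUI3 was then at 0.48 for Ssz1 S295F and 0.50 for the Zuo1 fragment. None of the 6 genes of Gcn2 and its ribosomal partners passed 1.5-fold. GCN1, which binds ribosomes and is needed for Gcn2 activation, had 0.30 for Ssz1 S295F and 0.17 for the Zuo1 fragment, and YIH1, an inhibitor of that step, -0.30 for Ssz1 S295F and -0.32 for the Zuo1 fragment. GIR2 had -0.35 for Ssz1 S295F and -0.20 for the Zuo1 fragment and RBG2 -0.26 for Ssz1 S295F and -0.11 for the Zuo1 fragment. YIH1 and GIR2 are short, at 777 and 798 bp. With the trend of coding length subtracted, YIH1 was at 0.06 for Ssz1 S295F and -0.04 for the Zuo1 fragment. On that scale GIR2 was at 0.003 for Ssz1 S295F and 0.07 for the Zuo1 fragment. RBG2 was then at -0.06 for Ssz1 S295F and 0.06 for the Zuo1 fragment, and GCN1 at 0.25 for Ssz1 S295F and 0.20 for the Zuo1 fragment. GCN2 itself, named here after its values were seen, read 3200.5 with Ssz1 S295F, 3145 with the Zuo1 fragment and 3208 with vector. None of the 5 genes for Gcn4 protein turnover passed 1.5-fold. Those farthest from vector were the kinase gene PHO85, at -0.31 for Ssz1 S295F and -0.34 for the Zuo1 fragment, the mediator kinase SSN3, at -0.20 for Ssz1 S295F and -0.03 for the Zuo1 fragment, the ubiquitin-conjugating enzyme CDC34, at 0.18 for Ssz1 S295F and 0.06 for the Zuo1 fragment, and the cyclin SSN8, at -0.15 for Ssz1 S295F and -0.14 for the Zuo1 fragment. With the trend of coding length subtracted, PHO85 was at -0.06 for Ssz1 S295F and -0.12 for the Zuo1 fragment. CDC34 was then at 0.49 for Ssz1 S295F and 0.31 for the Zuo1 fragment. SSN8 was at 0.13 for Ssz1 S295F and 0.09 for the Zuo1 fragment on that scale. Among the 9 pathway transcription factors only PHO2 passed 1.5-fold. ARG80 (-0.28 for Ssz1 S295F and -0.24 for the Zuo1 fragment) and ARG82 (-0.27 for Ssz1 S295F and -0.25 for the Zuo1 fragment), of arginine control, and LYS14 (0.23 for Ssz1 S295F and 0.12 for the Zuo1 fragment), the activator of lysine genes, did not. With the trend of coding length subtracted, ARG80, of 534 bp, was at 0.18 for Ssz1 S295F and 0.10 for the Zuo1 fragment. ARG82 was then at -0.05 for Ssz1 S295F and -0.05 for the Zuo1 fragment.

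Asparagine synthesis was the place where an amino acid enzyme outside the 46 came nearest to 2-fold on the higher side. ASN2 (YGR124W, chromosome VII, 739949 to 741667), an asparagine synthetase, read 14864 with Ssz1 S295F, 13007 with the Zuo1 fragment and 7448 with vector, ratios of 0.997 ± 0.02 for Ssz1 S295F and 0.80 ± 0.03 for the Zuo1 fragment. Its isoenzyme ASN1 read 20938 with Ssz1 S295F, 21939 with the Zuo1 fragment and 16341 with vector, ratios of 0.36 ± 0.08 for Ssz1 S295F and 0.43 ± 0.05 for the Zuo1 fragment. In the same list ALT1 had ratios of 0.18 for Ssz1 S295F and 0.11 for the Zuo1 fragment and AAT2 of 0.11 for Ssz1 S295F and 0.11 for the Zuo1 fragment. GLY1, threonine aldolase, which draws glycine from the threonine branch, read 12077 with Ssz1 S295F, 12334 with the Zuo1 fragment and 7714 with vector, ratios of 0.65 ± 0.03 for Ssz1 S295F and 0.68 ± 0.03 for the Zuo1 fragment. GLY1 passed 1.5-fold on both construct arrays, while SER2, the last step to serine, lay at -0.54 ± 0.02 for Ssz1 S295F and -0.43 ± 0.01 for the Zuo1 fragment and SHM1 at 0.33 for Ssz1 S295F and 0.23 for the Zuo1 fragment. SER2 is short at 930 bp, and with the trend of coding length subtracted it was at -0.25 for Ssz1 S295F and -0.18 for the Zuo1 fragment. The list of other Gcn4-induced genes also holds UGA3, given above. In it, SNO1 (0.31 for Ssz1 S295F and 0.26 for the Zuo1 fragment), SNZ1 (0.20 for Ssz1 S295F and 0.15 for the Zuo1 fragment) and IDP1 (0.20 for Ssz1 S295F and 0.12 for the Zuo1 fragment) stayed under 1.5-fold, as the members did. SNO1 is short at 675 bp. With the trend of coding length subtracted it was at 0.71 for Ssz1 S295F, past 1.5-fold, and 0.57 for the Zuo1 fragment. On that scale all 6 genes of the list lay above 0 in both comparisons, where 52.1% and 52.3% of all genes did. Their medians were 0.49 for Ssz1 S295F and 0.41 for the Zuo1 fragment. Without that subtraction the medians of these 6 genes were 0.20 for Ssz1 S295F and 0.13 for the Zuo1 fragment. Above 0 then lay 5 of the 6 in each comparison, where 34.2% and 32.5% of all genes did.

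The lowest ratio of these lists was in aromatic metabolism. ARO9 (YHR137W, chromosome VIII, 375712 to 377253), an aromatic aminotransferase that also serves in breakdown, read 2886 with Ssz1 S295F, 3652 with the Zuo1 fragment and 6556 with vector, ratios of -1.18 ± 0.03 for Ssz1 S295F and -0.84 ± 0.07 for the Zuo1 fragment. Its relative ARO8 read 14030 with Ssz1 S295F, 13083 with the Zuo1 fragment and 11810 with vector, ratios of 0.25 ± 0.02 for Ssz1 S295F and 0.15 ± 0.02 for the Zuo1 fragment. ARO7, chorismate mutase, read 1651 with Ssz1 S295F, 1981 with the Zuo1 fragment and 2705 with vector, ratios of -0.71 ± 0.05 for Ssz1 S295F and -0.45 ± 0.04 for the Zuo1 fragment. ARO7 is short at 771 bp, and with the trend of coding length subtracted its ratios were -0.35 for Ssz1 S295F and -0.17 for the Zuo1 fragment, no longer past 1.5-fold. PHA2, prephenate dehydratase, had -0.31 for Ssz1 S295F and -0.21 for the Zuo1 fragment. Subtracting the trend of coding length put PHA2 at -0.06 for Ssz1 S295F and 0.006 for the Zuo1 fragment. TRP1, phosphoribosylanthranilate isomerase, named here after its values were seen, read 4.24 with Ssz1 S295F, 4.26 with the Zuo1 fragment and 4.28 with vector, at the bottom of the range of each array, so it has no usable ratio. Its neighbours in the pathway, TRP3 and TRP4, were read at ordinary levels.

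The remaining lists held no gene past 1.5-fold. In arginine synthesis ARG2 had ratios of 0.10 for Ssz1 S295F and 0.02 for the Zuo1 fragment, ARG7 of 0.05 for Ssz1 S295F and -0.06 for the Zuo1 fragment, and the ornithine transporter ORT1 of -0.21 for Ssz1 S295F and -0.21 for the Zuo1 fragment. In histidine synthesis and its precursors HIS2 had -0.40 for Ssz1 S295F and -0.29 for the Zuo1 fragment, HIS6 -0.22 for Ssz1 S295F and -0.21 for the Zuo1 fragment, ADE4 0.12 for Ssz1 S295F and 0.08 for the Zuo1 fragment and PRS3 -0.10 for Ssz1 S295F and -0.05 for the Zuo1 fragment. With the trend of coding length subtracted, HIS2 was at -0.15 for Ssz1 S295F and -0.07 for the Zuo1 fragment. On that scale HIS6 was at 0.13 for Ssz1 S295F and 0.07 for the Zuo1 fragment. ORT1 was then at 0.11 for Ssz1 S295F and 0.05 for the Zuo1 fragment. The cytosolic branched-chain aminotransferase BAT2 had -0.17 for Ssz1 S295F and -0.17 for the Zuo1 fragment, against a level near vector for BAT1, and the transporter OAC1 had -0.08 for Ssz1 S295F and -0.06 for the Zuo1 fragment. LYS5, which activates Lys2, had -0.53 for Ssz1 S295F and -0.53 for the Zuo1 fragment. It is short at 819 bp, and with the trend of coding length subtracted it was at -0.19 for Ssz1 S295F and -0.26 for the Zuo1 fragment. Among 7 genes of glutamate, glutamine and proline synthesis the farthest from vector were PRO1 (0.17 for Ssz1 S295F and 0.07 for the Zuo1 fragment), PRO3 (-0.14 for Ssz1 S295F and -0.14 for the Zuo1 fragment), GDH3 (0.04 for Ssz1 S295F and -0.12 for the Zuo1 fragment) and GLT1 (0.08 for Ssz1 S295F and -0.04 for the Zuo1 fragment).

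**Figure D5:**
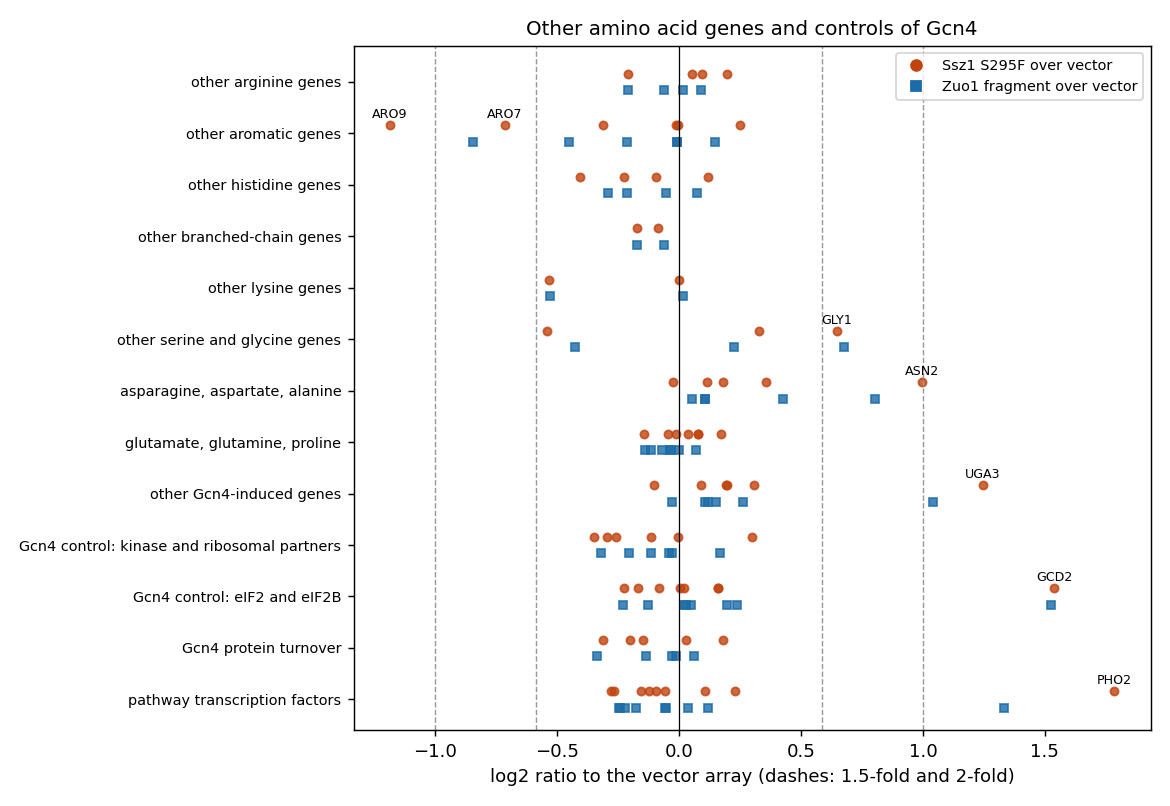
Log2 ratio to the vector array (horizontal axis) of 67 other genes in 13 lists (rows) for Ssz1 S295F (circles) and the Zuo1 fragment (squares); dashed lines mark 1.5-fold and 2-fold, and genes past 1.5-fold with Ssz1 S295F are named. PHO2, GCD2, UGA3, ASN2 and GLY1 lie on the right and ARO9 and ARO7 on the left, past 1.5-fold with Ssz1 S295F. SER2 (-0.54) and LYS5 (-0.53) lie just inside the 1.5-fold line on the left with Ssz1 S295F. TRP1, without a usable ratio, is drawn at 0 among the aromatic genes.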

How the data were processed

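Each gene has 3 intensity values per array, 1 for each block, deposited by the authors on a linear scale after RMA, which the submitters' processing notes name without software or version. Per the series' design text, RNA of 3 cultures was pooled per array. A further deposited column of unstated meaning was not used. Intensities were put on the log2 scale with no floor or pseudocount and averaged over blocks. With 1 array per group no test was run, and differences were read by rules of size (2-fold and 1.5-fold) beside the share of all 5777 genes past the same rule. The number of arrays limits the precision, and the block SD covers technical noise only.

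Genes were matched by locus tag to a RefSeq table, which names 5771, and ARG5,6 through the array's own product name. Coordinates are those of the array files, on chromosome sequences of 2008, and span the coding sequence. Members and gene lists were chosen with earlier results of these data known. All members are named, and of each other list up to 4 genes with the largest ratios to vector. The values of 2 genes of these lists are not reported here.

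Alternatives were the authors' series-wide intensity table (5769 genes), centring, quantile normalization, lowess on level or coding length (span 0.3, 3 iterations, statsmodels 0.14.6), a filter on the lowest 25% of genes, single blocks and leaving out LEU2. The computation was tested on simulated data. Promoter and protein sequences were not used here.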

Additional observations from a re-analysis of the deposited data

Results flagged for a closer look

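TRP4, anthranilate phosphoribosyltransferase, was above vector with Ssz1 S295F (a log2 ratio of 0.026 ± 0.02) and below it with the Zuo1 fragment (-0.10 ± 0.05), in each of the 3 blocks. It was picked out because the construct arrays lay on opposite sides of vector, and the difference was not tested, having 1 array per group. Under other scalings and blocks the Zuo1 fragment ratio ran from -0.14 to 0.05, on both sides of vector.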

How the results depend on the processing

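No member passed 2-fold in any comparison under any setting run. At 1.5-fold with Ssz1 S295F over vector, 1 member passed under 4 settings: LYS4 with ratios centred (0.59), SER3 with quantile normalization (0.59) and with the trend of level subtracted (0.79), and ILV6 with the trend of coding length subtracted (0.65). None passed in the other comparisons. The median of the members with Ssz1 S295F over vector was 0.0068, and was 0.16 centred, 0.023 with quantile normalization, 0.063 with the trend of level subtracted, 0.14 with that of coding length subtracted, and 0.033 and 0.026 in blocks 1 and 2 alone. With the Zuo1 fragment over vector it was -0.03, and 0.092 centred and 0.068 with the trend of coding length subtracted, so its sign depends on the scaling, and -0.014 with that of level subtracted and -0.021 in block 1. For the Zuo1 fragment over Ssz1 S295F it was -0.05, and -0.078 centred, -0.065 with quantile normalization, -0.077 and -0.058 with the trends of level and length subtracted, -0.048 without the lowest genes, -0.053 without LEU2, and -0.047, -0.045 and -0.046 in single blocks. These shifts exceeded the block SD of the median. Centring moves the median of the members by the median of all genes, by construction. The cause of the other shifts was not tested.

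Single signs are less firm than sizes: 23 members kept 1 sign with Ssz1 S295F over vector under every setting run, 19 with the Zuo1 fragment over vector and 32 between the constructs. Among those that kept it in both comparisons with vector were LYS4, LYS21, SER3, ILV3, ILV6, CPA1, ARG4 and LYS20, and HIS3 and GCN4 did not. Centring raises every ratio to vector, so the counts for those comparisons favour members above it. UGA3 with Ssz1 S295F ran from 0.91 to 1.57 and ASN2 from 0.92 to 1.15, either side of 2-fold, as did UGA3 with the Zuo1 fragment, from 0.95 to 1.33. With the trend of coding length subtracted, ARO7 with Ssz1 S295F lost 1.5-fold (-0.35) and SNO1 with Ssz1 S295F passed it (0.71). The filter on dim genes removed SER3. An alternative without members of closely related protein sequence was not run, as no protein sequence was used here. No paired analysis was possible because each group has 1 array.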

Other observations

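URA3, a gene of uracil synthesis often used as a yeast marker, read 368 with Ssz1 S295F, 445 with the Zuo1 fragment and 647 with vector, log2 ratios to vector of -0.82 ± 0.10 for Ssz1 S295F and -0.54 ± 0.12 for the Zuo1 fragment. With the trend of coding length subtracted they were -0.47 for Ssz1 S295F and -0.27 for the Zuo1 fragment, no longer past 1.5-fold with Ssz1 S295F. Over all alternatives they lay between -0.89 and -0.33 for Ssz1 S295F and between -0.66 and -0.09 for the Zuo1 fragment. URA3 was dim, below the 25th percentile of each array (1252 with Ssz1 S295F, 1261 with the Zuo1 fragment and 1374 with vector).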
